A study of Salmo salar with 30 samples.

Results

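The heart development genes described here are 39 microarray probes with 27 gene names, out of the 63 probes that the study's term list places under heart development and the 21117 probes of the whole table. Of the 63 probes, 10 that the same list also gives under cell cycle and 14 whose name holds myosin, troponin or cardiac were left out, and all of the other 39 were measured. The members were thus chosen by measured values, since the list holds only probes that the study had selected on the log2 ratios of these same juveniles for a difference between rearing environments. The difference between environments is therefore given as a description without a test. The remaining genes are not all outside the sarcomere: they include proteins of the Z-disc, the plate that anchors the thin filaments at each end of a sarcomere, and 1 muscle actin. They are therefore called by their rule, as heart development members.

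Transcript abundance was measured in whole heads of Atlantic salmon (Salmo salar), cut off just behind the gill cover at emergence, when the yolk has been used up. Juveniles of 3 full-sib families were reared in tanks with gravel (enriched) or without gravel (unenriched), with 5 juveniles per family and environment. Family X11 had wild parents of both sexes, and families X22 and X35 had a wild dam and a farmed sire of the Saint John River strain. Each family had a single tank per environment, so that tank and environment cannot be told apart within a family, and p-values cover the spread between siblings of a tank. On each array the Cy5 dye carried the RNA of 1 juvenile and the Cy3 dye a pool of RNA from the experimental heads, and values are log2 ratios of Cy5 over Cy3 from the authors' table (0 is the level of the pool). The share of spots with a signal above the background limit (background mean + 2 SD) was 28.2 to 42.9% in Cy5 and 48.0 to 53.7% in Cy3. Precision is limited by the number of tanks as well as of arrays. The SE given with a difference between environments was taken over 15 and 15 juveniles. It treats juveniles of a tank as independent and so does not measure the spread between tanks.

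A fish heart is formed from muscle cells that assemble sarcomeres, from an inner endothelial layer and from an outflow tract that arises from pharyngeal tissue. Z-disc and LIM proteins hold the sarcomeres in register and sense stretch, myosin chaperones fold the motor protein before it enters the thick filament, and BMP, FGF and Notch signals pattern the tube before it beats. Most of these genes also act in skeletal muscle or elsewhere in the head. In a head sample, fewer cells of a type and less RNA per cell cannot be told apart. The study states that these samples included the heart, and that enriched juveniles were heavier after allowing for length. It names size or developmental stage as a possible contributor to muscle and organ transcripts, which was not tested here.

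One juvenile stood apart before any comparison. Replicate 3 of unenriched X22 had the highest value of all 30 juveniles in 13 of the 39 members, whereas no other juvenile was highest in more than 5. It also had the highest mean over the heart muscle markers (0.78, closely followed by others from 0.73 down) and over the fast skeletal muscle markers (1.27, the next 0.80). Where a difference turned without this juvenile, both values are given. Calls that changed without it are named with the tests or at the end.

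Transcripts of 36 members were lower in enriched than in unenriched juveniles and those of 3 members were higher, over all families and in each family separately. Of all 21117 probes, 10974 were lower over all families, and 10851, 10566 and 10420 in X11, X22 and X35. The 14 heart development probes left out by name and the 10 left out as cell cycle were all lower, in every family. Their medians over all families were -0.66 and -0.49. The study reports that most of its listed genes were higher in unenriched juveniles, so the lower direction is not particular to the members. The members' median difference (enriched minus unenriched) lay at -0.51 for the families together, and at -0.57, -0.52 and -0.32 for X11, X22 and X35, while the medians over all probes lay at -0.01, -0.01, -0.00 and 0.00. All 39 members kept a single direction in the 3 families, as did 33.3% of all probes. The listing had pooled these families, which favours such agreement, so nothing is read from it. Among the 15 enriched and 15 unenriched juveniles the ranges overlapped in every member. Without replicate 3 of unenriched X22, 35 members were lower in X22 and the median there was -0.36. The plot of differences by family shows each member's values.

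**Figure D1:**
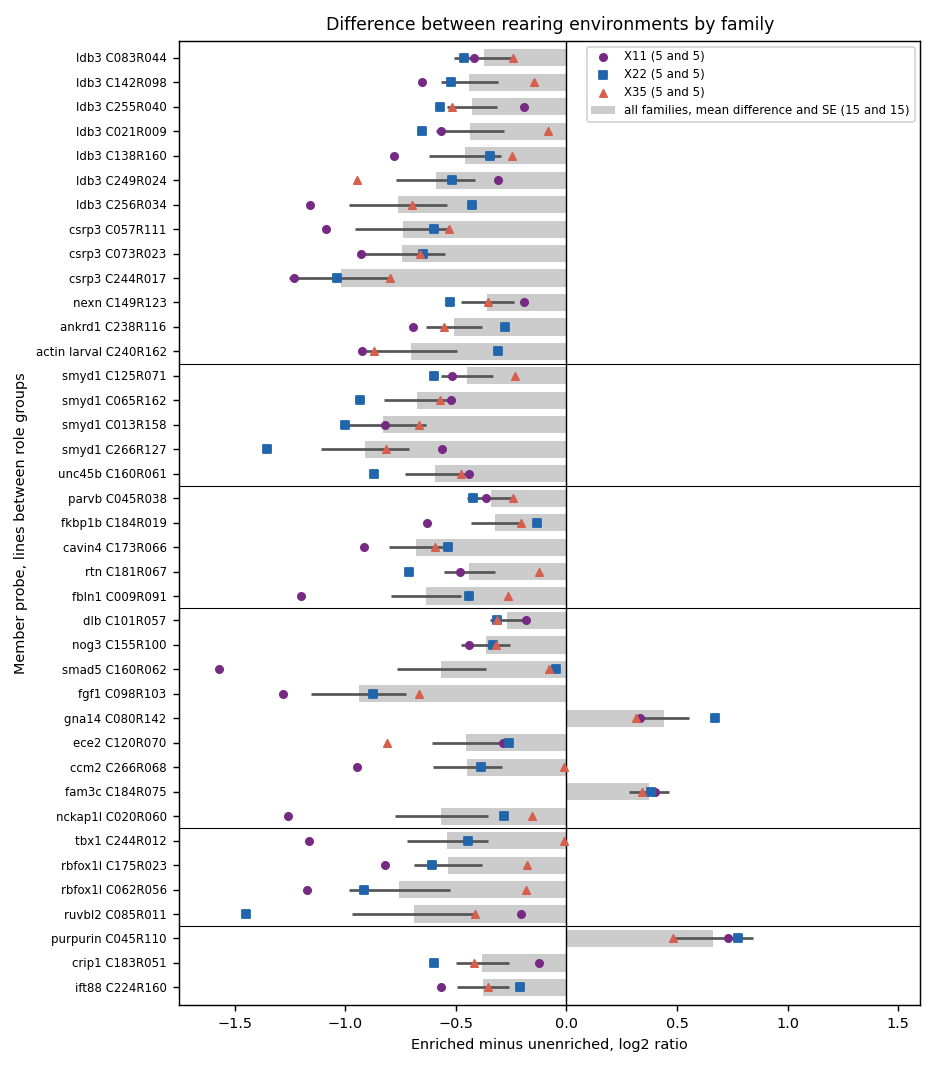
Enriched minus unenriched difference in log2 ratio for each of the 39 member probes. Grey bars are the difference over all families with its SE (15 and 15 juveniles), and symbols are the differences within X11, X22 and X35 (5 and 5 juveniles each). Only gna14, fam3c and purpurin lie to the right of 0, in all 3 families.

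The listing had used a SAM d statistic, a difference divided by its spread plus a constant. Among the members that were lower, fkbp1b lay nearest to the threshold, with a recomputed d of -2.17 and a difference of -0.32, and the unlisted probe just outside had a d of -2.15 and a difference of -0.39. Among those that were higher, fam3c was nearest, with a d of 2.86, and the unlisted probe just outside had a d of 2.71.

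Within each environment, juveniles of a tank differed widely. The median log2 ratio over the 39 members was -0.48 ± 0.14 (SD, n = 5) in enriched and 0.13 ± 0.23 in unenriched X11. The X22 values were -0.50 ± 0.22 and -0.03 ± 0.32, and the X35 values -0.30 ± 0.17 and 0.01 ± 0.21. Replicate 5 of unenriched X11, at -0.28, lay just above the enriched X11 juveniles (-0.63 to -0.30). The other 4 juveniles of its tank were at 0.19 to 0.26. In X11 the 5 enriched and 5 unenriched juveniles did not overlap in 15 of the 39 members, beside 11.2% of all probes. The corresponding numbers were 3 members in X22, beside 2.22% of all probes, and 3 in X35, beside 1.1%. The same contrast had chosen the members, so nothing is read from these counts.

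**Figure D2:**
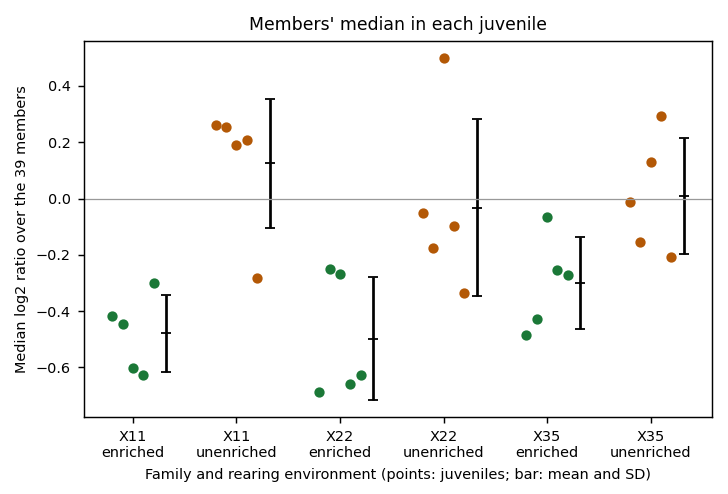
Median log2 ratio over the 39 members in each juvenile (points), with the mean and SD of each group of 5 (bars), enriched in green and unenriched in orange. Replicate 3 of unenriched X22 is the highest juvenile, at 0.50. Replicate 5 of unenriched X11 lies at -0.28, just above the enriched X11 juveniles.

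The arrays lay on 8 slides, as read from the slide number each deposited array carries, since no label gives it, and 4 of them held both environments of a family. Within slide 4 (X11, 1 enriched and 3 unenriched juveniles) the median member difference was -0.47 and 34 members were lower. Within slide 1 and slide 2 (X22) it was -0.28 and -0.32, with 33 members lower on each. Within slide 7, the only one with both environments of X35 (3 enriched and 1 unenriched), it was -0.03 with 25 members lower, beside 53.3% of all probes. There the median over all probes was also -0.03, and the comparison rested on a single unenriched juvenile. When slide entered the fit as a fixed block, the medians were -0.29 for X22 and -0.03 for X35, and 35, 35 and 25 members were lower in X11, X22 and X35. The difference over all families kept its sign in every member then, but was more than 1.5 times smaller in 17 members and larger in 1 (ece2). It was -0.19 instead of -0.51 for ankrd1, -0.31 instead of -0.76 for ldb3 C256R034, -0.27 instead of -0.76 for rbfox1l C062R056, -0.25 instead of -0.59 for unc45b and -0.64 instead of -1.02 for csrp3 C244R017. When single juveniles were left out, the number of lower members was never under 34, 35 and 32 for X11, X22 and X35.

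The Z-disc and associated muscle proteins were the largest role group, with 13 probes of 5 genes, all lower in enriched juveniles in every family. Their median difference was -0.51. The gene ldb3 (LIM domain-binding protein 3) encodes a Z-disc protein that links alpha-actinin to signalling enzymes, and 7 probes carry its name. Over all families the 7 probes were lower by differences of -0.37 (C083R044), -0.43 (C255R040), -0.44 (C021R009), -0.44 (C142R098), -0.46 (C138R160), -0.59 (C249R024) and -0.76 (C256R034). In C256R034 the enriched juveniles lay between -1.72 and 0.76 with a median of -0.74, and the unenriched juveniles between -0.85 and 0.84 with a median of 0.24. The enriched values thus spanned the whole unenriched range except its top, with 12 of 15 under the unenriched median. The Cy5 signal of this probe was under the background limit on 8 enriched arrays and 1 unenriched array, and that of C249R024 on 12 and 7.

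The gene csrp3 (cysteine and glycine-rich protein 3, or muscle LIM protein), which in mice is needed for the ordered structure of heart muscle, had 3 probes, with differences of -0.74 (C057R111), -0.75 (C073R023) and -1.02 (C244R017). In C244R017 enriched juveniles ran from -2.12 to 0.02 with a median of -1.20, and unenriched juveniles from -1.09 to 1.27 with a median of -0.22. The difference of -1.02 (SE 0.23) was the largest in size of all members, and no fold is given because of the dim arrays. By family it was -1.23 (X11, where the groups did not overlap), -1.03 (X22) and -0.80 (X35). Without replicate 3 of unenriched X22 the X22 difference was -0.64, and 9 enriched and 2 unenriched arrays were under the Cy5 limit.

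The smallest difference of the group was that of nexilin (nexn, C149R123), an actin-binding protein that stabilises the Z-disc. Enriched juveniles had values from -0.79 to 0.00 with a median of -0.31, and unenriched juveniles from -0.57 to 0.85 with a median of -0.05. The difference was -0.36 (SE 0.12), and the upper part of the unenriched range held no enriched juvenile. For ankyrin repeat domain-containing protein 1 (ankrd1, C238R116), a stretch-responsive cofactor that binds titin, it was -0.51. For the probe named larval muscle actin (C240R162), a thin filament protein, it was -0.70. The X22 difference of this actin, -0.31, became -0.00 without replicate 3 of unenriched X22. The study's other list names the same probe alpha cardiac muscle 1.

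Among the myosin chaperones all 5 probes were lower in enriched juveniles, with a median difference of -0.67 over all families. The gene smyd1, a methyltransferase that in zebrafish binds myosin and is needed for thick filament assembly, had 4 probes, at -0.45 (C125R071), -0.67 (C065R162), -0.83 (C013R158) and -0.91 (C266R127). In C266R127 enriched juveniles lay between -1.88 and 0.13 with a median of -0.99, and unenriched juveniles between -0.81 and 1.17 with a median of -0.23. Only 1 enriched juvenile was above the unenriched median, but 14 enriched and 8 unenriched arrays had a Cy5 signal under the limit, as did 12 and 3 for C013R158 and 10 and 4 for C065R162. In C125R071, which was above the limit on every array, enriched values were -1.09 to 0.14 with a median of -0.67 and unenriched values -0.56 to 0.54 with a median of -0.31. Its difference was -0.45 (SE 0.12), and the groups of 5 did not overlap in X11 or X22. The myosin chaperone unc45b (C160R061), a partner of Hsp90, had a difference of -0.59.

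The membrane, matrix and calcium release genes numbered 5, all lower in enriched juveniles, with a median difference of -0.44. The largest was that of cavin4 (C173R066, PTRF/SDPR family protein), a coat protein of the caveolae of muscle cells. Enriched juveniles had values from -0.69 to 0.50 with a median of -0.29, and unenriched juveniles from -0.03 to 0.93 with a median of 0.45. The difference was -0.68 (SE 0.12), with 14 of 15 enriched juveniles under the unenriched median and no overlap in X11. The smallest was that of fkbp1b (C184R019, FK506-binding protein 1B), a subunit that steadies the calcium release channel. Here enriched juveniles lay at -0.51 to 0.24 with a median of -0.02 and unenriched juveniles at -0.23 to 1.23 with a median of 0.19, a difference of -0.32 (SE 0.11). The highest unenriched juveniles lay above all enriched ones, and the X11 difference of -0.63 was farther from 0 than those of X22 (-0.13) and X35 (-0.21). For the probe named NOGO isoform A2 (C181R067), a reticulon of the endoplasmic reticulum, the difference was -0.44.

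Signalling genes were 9 probes, of which 7 were lower and 2 higher, with a median of -0.45. Fibroblast growth factor 1 (fgf1, C098R103, listed as a heparin-binding growth factor) had the largest difference. Enriched juveniles had values from -2.12 to 0.38 with a median of -0.88, and unenriched juveniles from -0.64 to 0.60 with a median of 0.06. The enriched median thus lay below the lowest unenriched juvenile. All 15 enriched and 6 unenriched arrays were under the Cy5 limit, so that no fold is given for the difference of -0.94 (SE 0.21). The smallest was that of dlb (C101R057, delta-like protein B), a ligand of Notch receptors, with enriched values of -0.64 to 0.05 and a median of -0.29 and unenriched values of -0.58 to 0.26 and a median of 0.06. Its difference was -0.27 (SE 0.08), and all 15 enriched juveniles were under the unenriched median.

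Noggin-3 (nog3, C155R100), a secreted antagonist of BMPs, had a difference of -0.36 with 12 enriched and 4 unenriched arrays under the limit, and malcavernin (ccm2, C266R068), a scaffold of endothelial cells that is needed for the zebrafish heart, one of -0.45 with 9 and 6. Nck-associated protein 1-like (nckap1l, C020R060), an actin regulator of blood cells, lay at -0.83 to 1.17 with a median of -0.07 in enriched and at -0.34 to 1.43 with a median of 0.55 in unenriched juveniles. Its difference was -0.57 (SE 0.21), with 15 and 10 arrays under the limit. Endothelin-converting enzyme 2 (ece2, C120R070) was at -0.45 with a Cy5 signal under the limit on all 30 arrays, so its ratio is given no fold.

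The signalling genes gna14 and fam3c, and purpurin of the last role group, were higher in enriched juveniles. The remaining signalling gene, smad5 (C160R062), was lower over all families, at -0.57, and is described further below. The G protein subunit gna14 (C080R142), which couples receptors to phospholipase C, lay at -0.00 to 1.34 with a median of 0.51 in enriched juveniles and at -0.45 to 0.49 with a median of 0.11 in unenriched juveniles. Its difference was 0.44 (SE 0.11), or 1.36-fold. The secreted protein FAM3C (fam3c, C184R075) lay at -0.81 to 0.08 with a median of -0.18 in enriched juveniles and at -1.17 to -0.38 with a median of -0.56 in unenriched juveniles, a difference of 0.37 (SE 0.09), and its X35 groups did not overlap. Purpurin (C045R110), a retinol-binding protein secreted in the retina, lay at -0.55 to 1.61 with a median of 0.60 in enriched juveniles and at -1.20 to 0.60 with a median of -0.10 in unenriched juveniles. With a difference of 0.66 (SE 0.18), or 1.58-fold, it was the most positive of the members, and 1 enriched juvenile was under the unenriched median.

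Transcription and RNA genes were 4 probes, all lower in enriched juveniles, with a median of -0.61 over all families, -0.99 in X11 and -0.18 in X35. The T-box factor tbx1 (C244R012), which in vertebrates acts in pharyngeal tissue and the outflow tract, had a difference of -0.54 over all families and of -1.16, -0.44 and -0.01 in X11, X22 and X35. The splicing factor rbfox1l, active in zebrafish muscle, had 2 probes. In C062R056 enriched juveniles lay at -1.36 to 0.03 with a median of -0.70, and unenriched juveniles at -1.84 to 1.24 with a median of -0.04, a difference of -0.76 (SE 0.23). The unenriched spread was wide, and it held the lowest as well as the highest juvenile. In C175R023 enriched juveniles lay at -1.39 to -0.46 with a median of -0.78 and unenriched juveniles at -1.19 to 0.67 with a median of -0.13. All 15 enriched juveniles were under the unenriched median here, and the difference was -0.53 (SE 0.15).

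RuvB-like 2 (ruvbl2, C085R011), an ATPase of chromatin complexes with a role in heart growth in zebrafish, lay at -2.87 to 0.45 with a median of -0.96 in enriched juveniles and at -1.46 to 0.52 with a median of -0.26 in unenriched juveniles. Its difference was -0.69 (SE 0.28), its groups did not overlap in X22, and 14 arrays of each environment were too dim in Cy5 for a fold. Of the remaining genes, crip1 (C183R051, cysteine-rich protein 1), a small LIM protein not particular to muscle, was at -0.38 and did not overlap in X35. The ciliary transport protein ift88 (C224R160) had enriched values of -0.96 to -0.07 with a median of -0.61 and unenriched values of -0.78 to 0.40 with a median of -0.36, and a difference of -0.38 (SE 0.12). Both ranges of ift88 were mostly below the reference pool, with 13 of 15 enriched juveniles under the unenriched median and 8 and 6 dim arrays.

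**Figure D3:**
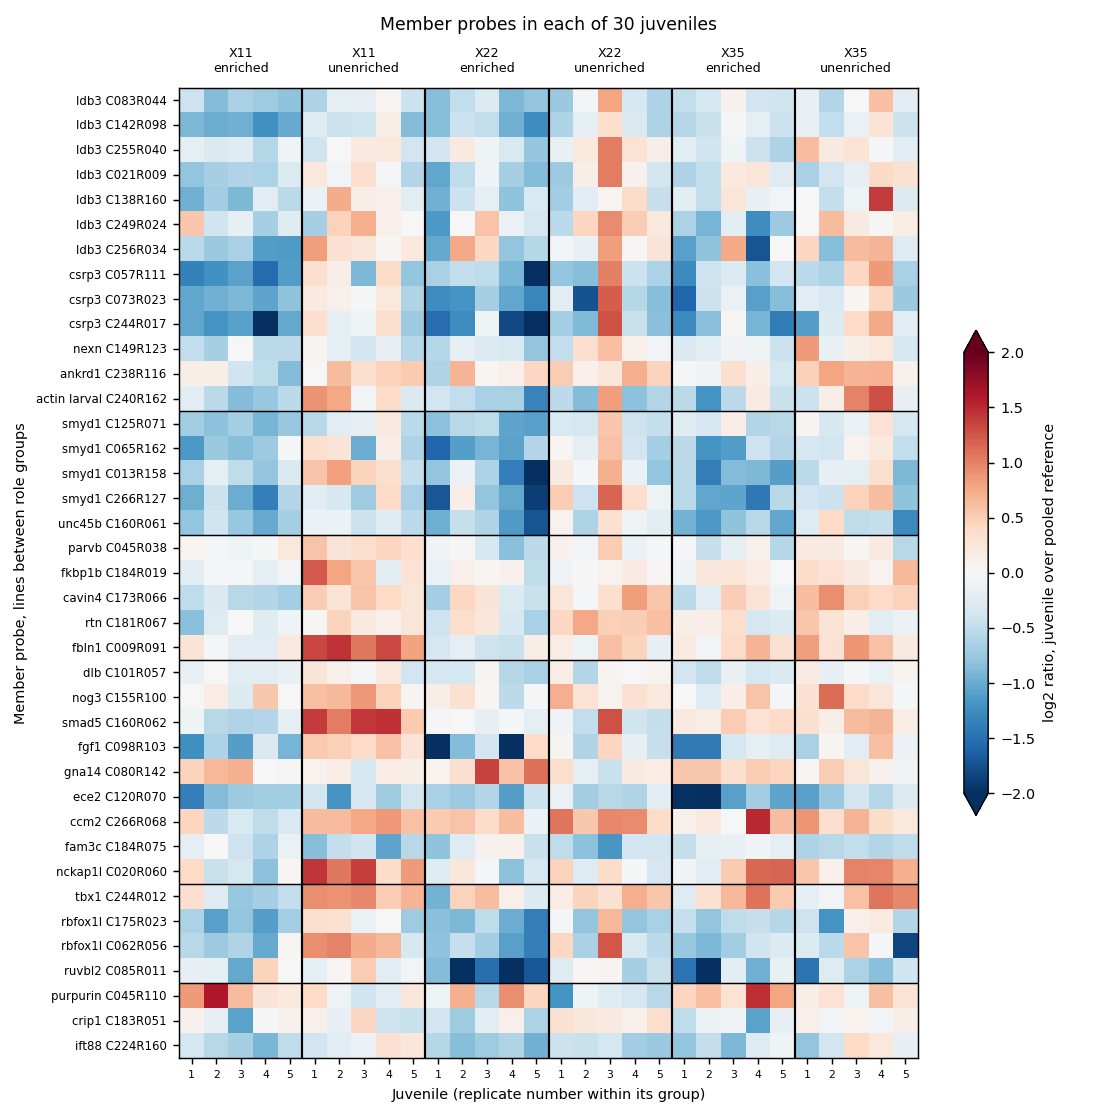
Log2 ratio of each member probe (rows, in role groups) in each of the 30 juveniles (columns, 5 per family and environment). Colours run from blue at -2 or less to red at 2 or more. Replicate 3 of unenriched X22 is red in most rows of the Z-disc and chaperone groups.

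Whether the difference between environments depended on family was tested across all 21117 probes with limma (F-test of the interaction, Benjamini-Hochberg adjustment). This contrast is separate from the one that chose the members. A dependence on family would still have counted as spread in that choice, so the members' counts here are not free of it. None of the 39 members passed an FDR of 5%, beside 0.0474% of all probes, and 5 members had an unadjusted p under 0.05, beside 15.4% of all probes. The lowest adjusted p was that of smad5 (C160R062, mothers against decapentaplegic 5), which carries BMP signals to the nucleus, and it is described here because of its values. In X11 the enriched juveniles had values of -0.08, -0.56, -0.60, -0.59 and -0.19 and the unenriched juveniles of 1.40, 1.03, 1.42, 1.46 and 0.53. In X22 the enriched values were -0.02, -0.02, -0.17, -0.03 and -0.17 and the unenriched values -0.08, -0.49, 1.27, -0.40 and -0.47. In X35 the enriched values were 0.18, 0.16, 0.50, 0.29 and 0.38 and the unenriched values 0.31, 0.12, 0.64, 0.68 and 0.14.

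The smad5 groups were thus wide apart in X11, with a difference of -1.57, and overlapped in X22 (-0.05) and X35 (-0.08). Without replicate 3 of unenriched X22 the X22 difference turned to 0.28. The interaction had an adjusted p of 0.0552 in limma with all juveniles, and of 0.000595 without replicate 3 of unenriched X22, the only high juvenile of its tank. Leaving out each of 3 other juveniles also brought it under 5%, with 0.0371 without replicate 1 of enriched X11, 0.0348 without replicate 5 of unenriched X11 and 0.0387 without replicate 1 of enriched X22. Over the other alternatives it was 0.0423 to 0.754, with the highest value for slide as a fixed block. The study's other list names this probe homolog 1. The matrix protein fibulin-1 (fbln1) came next, with an adjusted p of 0.124 and differences of -1.20, -0.44 and -0.26 in X11, X22 and X35.

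Differences between families, averaged over both environments, were tested in the same limma fit. Of the 39 members 5 passed (12.8%), beside 28.2% of all probes. The listing had pooled the families, so that spread between families counted as noise when the members were chosen. Family, tank and mostly slide cannot be told apart. The study also crossed X35 later than X11 and X22, and placed fewer X11 offspring in each tank. Neither can be told apart from family. By pairs, 2 members passed between X11 and X22 (7.3% of all probes), 2 between X11 and X35 (22.2% of all probes) and 3 between X22 and X35 (16% of all probes).

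Fibulin-1 (C009R091), a glycoprotein of elastic matrix and basement membranes, differed most clearly between families, with an adjusted p of 0.00205. The 10 juveniles of X11 lay at -0.23 to 1.45 with a median of 0.53, those of X22 at -0.44 to 0.61 with a median of -0.13, and those of X35 at -0.06 to 0.89 with a median of 0.34. X11 exceeded X22 by 0.62 (SE 0.13, adjusted p = 0.00336), and X22 was below X35 by a difference of -0.46 (adjusted p = 0.0152). The 5 unenriched X11 juveniles, at 0.80 to 1.45, set X11 apart, while the enriched X11 juveniles lay at -0.23 to 0.26.

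Ruvbl2 had lower ratios in X22 and X35 than in X11 (family adjusted p = 0.0148). Values were -1.02 to 0.52 with a median of -0.10 in X11, -2.34 to 0.06 with a median of -0.76 in X22 and -2.87 to -0.15 with a median of -0.74 in X35. X11 was above X22 by 0.90 (SE 0.26, adjusted p = 0.0326) and above X35 by 0.84 (SE 0.26, adjusted p = 0.0201). On 9, 9 and 10 of the 10 arrays of X11, X22 and X35 the ruvbl2 signal was under the limit, so these are differences between dim signals. For nckap1l (adjusted p = 0.0236), X22 was below X35 by a difference of -0.69 (SE 0.20, adjusted p = 0.0181), and 8, 9 and 8 arrays of X11, X22 and X35 were dim.

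Beta-parvin (parvb, C045R038), a focal adhesion protein that binds integrin-linked kinase, passed the family test with an adjusted p of 0.0454. Its values were -0.09 to 0.57 with a median of 0.24 in X11, -0.84 to 0.50 with a median of -0.06 in X22 and -0.57 to 0.20 with a median of -0.01 in X35. X11 had the highest median, and no pair of families passed on its own with all juveniles. The nearest was X11 minus X35, at 0.32 (SE 0.12, adjusted p = 0.0507 in limma). Without replicate 3 of unenriched X22, parvb passed between X11 and each of the other families. The difference of parvb between environments was -0.34 over all families, and -0.05 with slide as a fixed block. The ldb3 probe C142R098 (adjusted p = 0.0473) lay at -1.21 to 0.12 with a median of -0.89 in X11 and at -0.56 to 0.27 with a median of -0.31 in X35, a difference of -0.43 (SE 0.14, adjusted p = 0.0241). None of the other 6 ldb3 probes passed the family test. Purpurin passed between X22 and X35 only, with a difference of -0.58 (SE 0.20, adjusted p = 0.0441).

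**Figure D4:**
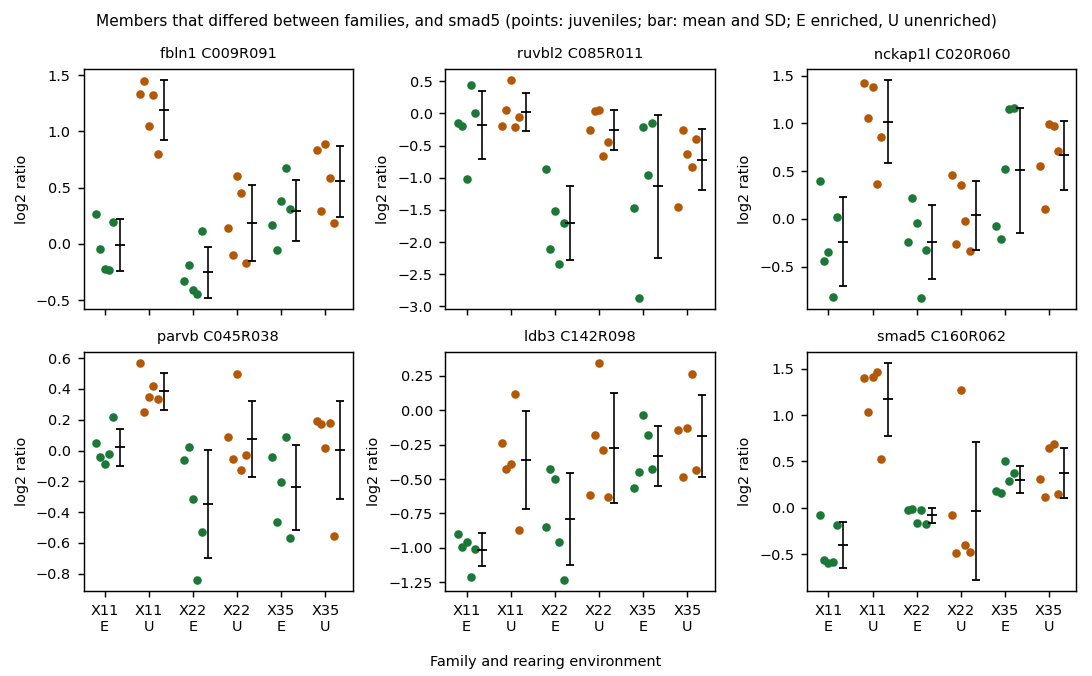
Log2 ratios of the 5 members that passed the family test, and of smad5, in each juvenile (points, enriched green and unenriched orange), with the mean and SD of each group of 5 (bars). In fbln1 the unenriched X11 juveniles lie at 0.80 to 1.45, above the enriched X11 juveniles at -0.23 to 0.26. In smad5 a single unenriched X22 juvenile is at 1.27.

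These family calls depended on the processing. With normexp background correction none of the 5 passed in limma, with adjusted p of 0.0629 (ldb3), 0.135 (parvb), 0.0751 (fbln1), 0.0815 (nckap1l) and 0.0828 (ruvbl2), while cavin4, ece2, ccm2 and purpurin passed. With slide as a fixed block only nckap1l of the 5 passed, together with smyd1 C013R158. Over all probes, 5180 of 21216 passed the family test after normexp and 1164 of 21117 with slide as a fixed block. Leaving out single juveniles ended the calls of ldb3 and parvb in 20 of 30 cases each and that of nckap1l without replicate 4 of enriched X22 (adjusted p = 0.0527), and ended none for fbln1 and ruvbl2.

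Probes of the same gene were compared within groups, as deviations of the 30 juveniles from their 6 group means. These correlations are descriptions across juveniles, and probes of a gene share the sample and the array. For csrp3 the 3 pairs of probes had Pearson r of 0.74 to 0.78, and the 2 probes of rbfox1l had 0.78. For ldb3 the 21 pairs ranged from 0.14 to 0.81 with a median of 0.51, and for smyd1 the 6 pairs from 0.20 to 0.69 with a median of 0.52. The probes of ldb3 and smyd1 thus followed each other unevenly, and the files do not say whether they come from separate gene copies or transcripts. The median SD within groups was 0.38 for the members and 0.34 over all probes. The widest member was csrp3 C244R017 (0.66) and the narrowest was dlb (0.21).

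Markers of muscle were lower in enriched juveniles over all families, as were most members. All tissue markers, however, could be named only through the study's lists of probes called in these juveniles. Their directions are therefore not independent of the listing. The heart muscle list held 11 probes, all of them left out of the members by name. They were named as atrial myosin light chains, troponin C of slow skeletal and cardiac muscles, cardiac myosin-binding protein C and alpha cardiac actin. The troponin C name thus covers skeletal muscle too, and the list is not particular to the heart. All 11 were lower in enriched juveniles, and their mean ranged from -1.27 to -0.40 in enriched and from -1.17 to 0.78 in unenriched juveniles. The atrial light chains weigh heavily in this mean, with differences of -2.34 (C251R080) and -2.72 (myosin light chain 4). The other probes lay at -0.80 to -0.38. C251R080 was above the Cy5 limit on every array, with medians of -3.44 in enriched and 0.40 in unenriched juveniles. Myosin light chain 4 was under the Cy5 limit on all 15 enriched arrays and 5 unenriched arrays, and ranged from -5.08 to 0.99 among the unenriched juveniles. The fast skeletal muscle list held 5 probes, all lower over all families, with a mean of -1.05 to 0.18 in enriched and -0.69 to 1.27 in unenriched juveniles. In X35 the fast muscle mean was 0.08 in enriched and 0.20 in unenriched juveniles. The part of these markers in the members' differences was not tested.

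Other tissues were less uniform, and in each list single probes went both ways over all families. Differences ran from -0.45 to 0.75 in brain, -0.98 to 0.57 in eye and -0.35 to 0.40 in hemoglobin probes. The cartilage probes were matrilin-4 (0.28, under the Cy5 limit on all 30 arrays) and matrilin-2 (-0.78). The mean of 9 brain marker probes ranged from -0.35 to 0.56 in enriched and -0.88 to 0.24 in unenriched juveniles, and that of 5 eye probes from -0.31 to 0.63 and from -0.62 to 1.02. The mean of 3 hemoglobin probes, for red blood cells, ranged from -0.23 to 0.56 and from -0.33 to 0.73, and that of 2 cartilage probes from -0.62 to 0.29 and from -0.07 to 0.75. The ranges overlapped between environments for each of these lists, as did those of the muscle lists.

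Within groups, the deviation of a member was set against the mean deviation of 9 heart muscle probes (without the atrial light chains) over the 30 juveniles. The troponin C probes among these 9 are named for slow skeletal muscle as well. The members had a median Pearson r of 0.48 (Spearman 0.48), and 16 of 39 were above 0.5, beside a median of -0.01 and 4.85% of all other probes. These are counts of probes, and every probe of csrp3, smyd1 and rbfox1l was above 0.5, so that fewer genes than probes stand behind them. Z-disc and associated muscle proteins had a median of 0.66, myosin chaperones 0.56 and transcription and RNA genes 0.52. Signalling genes had 0.32, membrane, matrix and calcium release genes 0.18 and the last role group 0.10. The 2 juveniles farthest from the marker's median were replicate 3 of unenriched X22 and replicate 4 of unenriched X35. Without them these medians were, in the same order, 0.49, 0.42, 0.50, 0.18, 0.30 and -0.01. The order of the signalling and membrane groups turned, and the transcription group was level with the Z-disc group. With all 30 juveniles kept, smad5 (0.77) and fbln1 (0.68) were among the high members. In smad5, replicate 3 of unenriched X22 stood apart from its tank, and the r of single members without it is not given. The highest r with all 30 were those of rbfox1l C175R023 (0.82) and the larval muscle actin (0.80). The study's other list gives this actin the name that some of the heart muscle probes carry. Its r may thus set a gene against its own probes, and nothing is read from it. Against 5 fast skeletal muscle probes the members' median was 0.42 (Spearman 0.42), with 17 above 0.5, beside -0.02 and 2.80% of all other probes. Probes of a gene, most of all those of ldb3, were counted singly here too. Without the 2 juveniles farthest from the median of each marker list the medians over all members were 0.39 and 0.38. Then 11 and 13 members were above 0.5, and the share of all other probes was not recomputed. The points share the array and the head, and the 2 muscle types were not separated.

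**Figure D5:**
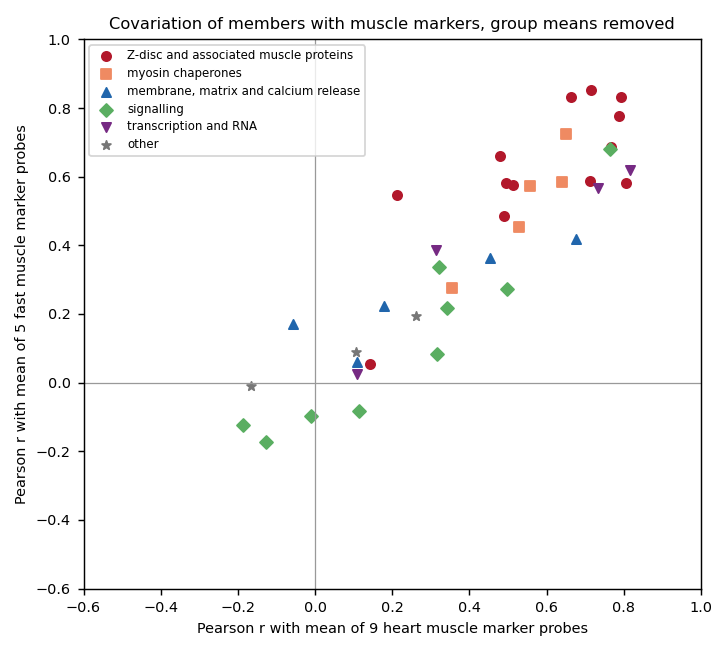
Pearson r of each member's deviations from its group means with those of the mean of 9 heart muscle probes (horizontal axis) and of 5 fast skeletal muscle probes (vertical axis), over 30 juveniles. Most Z-disc and chaperone probes lie at the upper right, and gna14, fam3c, nog3 and crip1 lie below 0 on both axes.

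Genes of the same processes outside the members could be named only through the study's lists, which hold probes that the study had called in these juveniles, so their directions are not independent and no test is given. Of 9 names of Z-disc and thick filament partners, 6 were found, on 13 probes, of which 11 were lower in enriched juveniles (median -0.37). The 3 probes with the most negative differences were an Hsp90 alpha probe (C229R038, -0.61) and both probes of alpha-actinin-2 (-0.60 and -0.59), the cross-linker of the Z-disc, and the 2 that were higher were also of Hsp90 alpha (0.78 and 0.31). Of 12 names of heart regulators, 5 were found, on 9 probes, of which 3 were lower and 6 higher (median 0.30). The lower ones were the muscle transcription factors mef2a (-0.28) and mef2c (-0.26) and bone morphogenetic protein 2 (-0.27). The higher ones were led by smad3 (1.01, with 25 of 30 arrays under the limit), smad7 (0.51) and a probe of programmed cell death protein 10 (0.36), a partner of malcavernin. The median over all probes was -0.01. None of the 9 regulator probes was on the study's list for the families together, whereas several Z-disc partner probes were. The regulators were thus named only through its lists for single families, and several of the higher probes were of programmed cell death protein 10.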

How the data were processed

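The authors deposited the scanner's spot intensity in both dyes and local background, and a table of log2 ratios for 21117 probes. Per the study's methods, the table holds ratios loess-normalized within arrays, filtered on flags and Cy3 signal and imputed. Of its values 1.06% were imputed, 2 of them in members (fgf1). All 30 columns matched their own array best when recomputed (r of at least 0.997). The recomputation subtracted the local background, a step that the methods do not spell out. Column medians were -0.074 to -0.004. The lowest correlation between 2 arrays was -0.39, and the direction was kept because the methods state the dyes. Dyes were never exchanged. No 2 arrays were identical.

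Members and lists were chosen with earlier results of these data known. Every member is named. Ranges are given for the probe of a gene with the largest difference, for the largest and smallest differences of each role group, for members past an FDR of 5% in the interaction or family test, and for those that were higher. smad5 and single juveniles were named after their values were seen. Gene names come from the study's lists.

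All probes were fitted with limma 3.58.1 (R 4.3.3, data.table, version 1.17.8) on 6 groups, with FDR over all probes. The fit was tested on simulated data. Alternatives were values recomputed from the scanner (loess span 0.4, 5 iterations), normexp (offset 50), imputed values missing, scaling, a filter on dim Cy5 (above the limit on 15 arrays), slide and replicate blocks, and omission of juveniles. The planned environment test of the pathway genes was not made, since their names came only from called probes, and the largest differences in each direction are named instead. A bound for fgf1 and nckap1l, dim on every enriched array, is left out because it exceeded the fold of the mean log2 ratios. Figures used Python 3.11.15, pandas 2.3.3, numpy 2.4.6 and matplotlib 3.10.9.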

Additional observations from a re-analysis of the deposited data

Results flagged for a closer look

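Among 132 groups of 5 values (the members described in full and the median over the members), 10 had 1 juvenile separated from the nearest other by more of the group's range than Dixon's limit, where chance gives about 1 in 20. Replicate 3 of unenriched X22 was high in 3 members: csrp3 C244R017 (1.27, others -0.88 to -0.45), smyd1 C125R071 (0.54, others -0.48 to -0.31) and smad5 (1.27, others -0.49 to -0.08). Replicate 5 of unenriched X11 was low in rbfox1l C062R056 (-0.32, others 0.65 to 1.00) and in the median over the members (-0.28, others 0.19 to 0.26). Among enriched X11 juveniles, those that stood apart were replicate 4 in csrp3 C244R017 (-2.12, under the Cy5 limit, others -1.20 to -1.03) and replicate 3 in nexn (0.003, others -0.66 to -0.49). The remaining values were those of dlb in replicate 2 of unenriched X22 (-0.58, others 0.01 to 0.13), parvb in replicate 5 of unenriched X35 (-0.56, others 0.02 to 0.20) and gna14 in replicate 3 of unenriched X11 (-0.31, others 0.07 to 0.15).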

How the results depend on the processing

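The median member difference between environments stayed negative under every alternative run, at -0.54 to -0.46 when single juveniles were left out (X11 -0.66 to -0.53, X22 -0.59 to -0.36, X35 -0.38 to -0.23). A fixed slide block gave -0.29 in X22 and -0.03 in X35. Then 2 members passed the family test, 1 between X11 and X22, 0 between X11 and X35 and 1 between X22 and X35. Of all 21117 probes, 1164 passed for family under that block, beside 5961 in the main fit. By the same pairs 509, 890 and 209 probes passed, beside 1541, 4680 and 3386. With slide fixed, the X11 minus X35 difference of ruvbl2 changed sign (adjusted p = 0.84). After normexp 0 members passed between X11 and X22, beside 1048 of 21216 probes. Among the 32 members bright enough on 15 arrays, 1 passed for the interaction (smad5), 3 for family, 1 between X11 and X22 and 1 between X11 and X35. Of all 16718 such probes, 49, 4465, 1264 and 3449 passed. Without replicates 3, 4 and 5 of enriched X35, 3 members passed for family and 1 between X22 and X35, beside 2736 and 464 of all 21117 probes. Leaving out single juveniles gave 0 to 1 members for the interaction and 3 to 8 for family. For X11 and X22, X11 and X35, and X22 and X35 it gave 1 to 4, 2 to 5 and 2 to 6. Over all probes these fits gave 0 to 139 for the interaction and 4924 to 6725 for family. By the same pairs they gave 1115 to 1957, 3810 to 5307 and 2354 to 4293 probes. The highest member counts for family, X11 and X22, and X22 and X35 came without replicate 3 of unenriched X22. Without that juvenile, larval muscle actin, smyd1 C125R071 and smad5 were added for family and between X22 and X35. Also added were parvb and smad5 between X11 and X22, and smyd1 C125R071 and parvb between X11 and X35. The call of ruvbl2 between X11 and X22 was lost in 7 of 30 such fits, that of purpurin between X22 and X35 in 10 and that of ldb3 C142R098 between X11 and X35 in 2.

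Replicate numbers did not pair the samples (mean correlation of deviations 0.0149 for equal and -0.0035 for different numbers). The replicate block gave 7 members for family and 4 between X11 and X35, beside 5941 and 4708 of all 21117 probes. Taken over all families, recomputed differences of single members stayed within 1 SD of juveniles within groups in 1513 cases, and 1 moved further. That was the difference of parvb (-0.05 under the fixed slide block), and none changed sign. This limit was wide and most of these fits left out a single juvenile, so the count does not measure stability. For rbfox1l C062R056 the SD was 0.58, beside an SE of 0.23 for the difference. Its change from -0.76 to -0.27 under the fixed slide block thus stayed within the limit. Within families signs did change, most under that block, where 25 members were lower in X35. Dim Cy5 signal limits ece2, ruvbl2, nckap1l, smyd1 C266R127 and fgf1 most, at 30, 28, 25, 22 and 21 of 30 arrays.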
